A study of Arabidopsis thaliana with 2 samples.

Results

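Of 147349 windows around Col-0/Bur-0 SNPs that had at least 1 read match, 393 passed limits on the Col-0 share in both crosses. They are called windows favouring Col-0, or members. With Col-0 as father, Col-0 matches outnumbered Bur-0 matches in only 176 of them. Each window was 71 nt long with the SNP in its centre and existed in a Col-0 and a Bur-0 version, so that a matching 36-nt read was assigned to one allele. Members had the next matched SNP more than 35 nt away, at least 20 matches in each cross and at least 5 Bur-0 matches over both. They further had a Col-0 share of at least 95% in Col-0×Bur-0, where Col-0 was the mother, and of at least 25% in Bur-0×Col-0, where Col-0 was the father. The first criteria left 24343 windows, and the share limits were met by 1.61% of these. The windows were thus chosen by their measured Col-0 shares, which are given below as a description. The same rule with the accessions exchanged found 379 windows favouring Bur-0, which was 1.56% of 24245 windows.

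A flowering plant seed holds an embryo, an endosperm with a larger maternal than paternal genome dose, and a seed coat that is entirely maternal tissue. Maternal reads therefore prevail in whole seeds, and an imprinted gene keeps its parental bias when the cross is reversed. A bias that depends on the accession stays with the allele instead and changes its parental side between the reciprocal crosses. Such allele-specific differences are known from cis-regulatory variation, and a read count can also depend on how well reads of each allele are captured or placed.

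The data were mRNA sequencing of total RNA from F1 seeds at 4 days after pollination (DAP). Emasculated Col-0 flowers were pollinated with Bur-0, giving maternal Col-0 (mCol) and paternal Bur-0 (pBur) matches, and emasculated Bur-0 flowers with Col-0, giving mBur and pCol matches. Both parents were natural accessions with no treatment, and each cross was represented by 1 library sequenced on 4 lanes. There was no biological replicate, so that every test below compares 2 libraries, not the conditions, and intervals cover counting error only. In these whole seeds, fewer cells of a tissue and less RNA per cell cannot be told apart.

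The Col-0×Bur-0 library had 6773239 matches, of which 93.2% were Col-0, and the Bur-0×Col-0 library had 8576779, of which 4.60% were Col-0. Lanes held between 1295748 and 2313110 matches. Reads gave 107.5 matches per 100 reads with Bur-0 as mother and 100.4 with Col-0 as mother. Matches of the seed coat gene BAN were 99.9% mCol in Col-0×Bur-0 and 99.95% mBur in the reciprocal cross. The endosperm gene PHE1 was 39.8% and 3.57% maternal, over 83 and 56 matches, in the same order. FWA, another endosperm gene, went the other way, with 100% and 95.5% maternal over 22 and 44 matches. It had 1 window, and its counts fitted 3 places.

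The 393 windows held 172707 matches in Col-0×Bur-0, or 2.55% of that library, and 173011 in Bur-0×Col-0, or 2.02%. Their median was 234 matches over both crosses, with a range from 42 to 53175. The 10 deepest windows held 45.2% of all 345718 matches. In Col-0×Bur-0 the median Col-0 share was 99.0%, and 128 windows had no pBur match at all. In Bur-0×Col-0 the median Col-0 share was 46.9%, compared with 2.17% among the 24343 windows before the share limits. The paternal share in Bur-0×Col-0 was 25 to 33% in 78 windows, 33 to 50% in 136, 50 to 95% in 167 and at least 95% in 12. In 176 of the 393 windows pCol matches outnumbered mBur matches. The windows lay on all chromosomes, with 110, 43, 82, 63 and 95 on chromosomes 1 to 5, which was between 1.22% (chromosome 2) and 1.75% (chromosome 3) of the windows before the share limits.

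**Figure D1:**
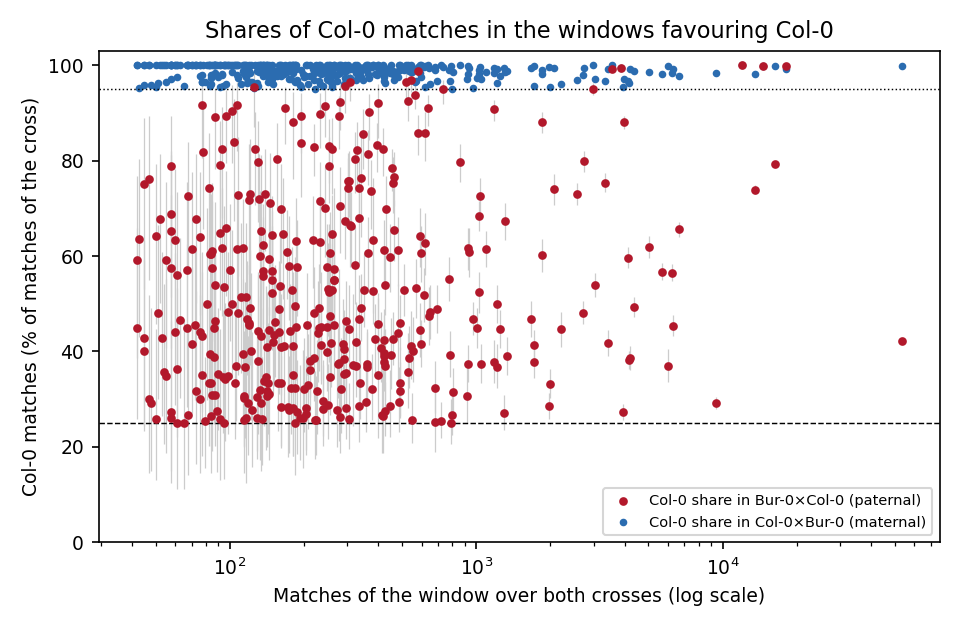
Col-0 matches as a percentage of the matches of a cross (y axis) against all matches of the window (x axis, log scale), 2 points per window for the 393 windows. Blue points are Col-0×Bur-0 and red points Bur-0×Col-0 with 95% Wilson intervals as grey bars, and the lines mark the limits of 95% and 25%. Red points spread from 25 to 99.9%, and the intervals are narrowest in the deepest windows.

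In most members, Col-0 matches were fewer with Col-0 as father than with Col-0 as mother. Scaled per total matches of the library, the pCol level was a median of 0.320 times the mCol level, against 0.0158 times in the windows before the share limits. This ratio was 0.156 in the windows with a paternal share of 25 to 33%, 0.283 at 33 to 50%, 0.471 at 50 to 95% and 0.824 at 95% or more. It follows in part from the rule, which sets a lower limit on the pCol share.

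The window with the most matches, chr3:8410964-8411034 (coordinates in TAIR8), had 25433 mCol and 23 pBur matches. In the reciprocal cross it had 16027 mBur and 11692 pCol matches, a Col-0 share of 42.2% (95% Wilson interval 41.6 to 42.8%). The share lay between 41.7% and 43.1% in the 4 lanes of that library. A window starting 443 nt before it with similar depth had 18838 mCol, 30 pBur, 10753 mBur and only 18 pCol matches. The Col-0 share in Bur-0×Col-0 thus dropped to 0.167% within that distance, and the other window was not called for either accession by Fisher's exact test (adjusted p = 1).

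Window chr4:2588380-2588450 had 6997 mCol, 13 pBur, 1927 mBur and 7332 pCol matches, with a Col-0 share in Bur-0×Col-0 between 78.0% and 80.0% in the lanes. When each start and orientation was counted once per lane, its Col-0 share was 49.1%. Such a count cannot exceed 36 starts in each orientation per lane, and so brings the alleles of deep windows closer together. Window chr1:2463351-2463421 had 5112 mCol, 95 pBur, 2166 mBur and 6126 pCol matches, and its share of 73.9% became 52.0% with starts counted once per lane. Of its 4 tested neighbours within 500 nt, 1 was called higher for Col-0 and 3 higher for Bur-0. In the neighbour starting 83 nt before it, all 90 matches of Col-0×Bur-0 and all 2062 of Bur-0×Col-0 were of the Bur-0 allele.

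Windows chr1:24843355-24843425 and chr1:2455592-2455662 had Col-0 shares in Bur-0×Col-0 of 65.6% (1221 mBur and 2324 pCol matches) and 56.5% (1333 and 1731). With starts counted once per lane these shares were 47.3% and 45.5%. Window chr5:16826794-16826864 had 4208 mCol, 36 pBur, 1110 mBur and 924 pCol matches, a Col-0 share of 45.4%. Another member started 184 nt before it with 38.6%. The 2 tested windows starting 265 and 244 nt before it went the opposite way, with 913 pBur to 480 mCol and 956 pBur to 351 mCol matches, and with 8 and 1 pCol matches. Windows of opposite preference thus lay within a short distance.

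In 12 windows at least 95% of the matches were Col-0 in both crosses, so that the Bur-0 allele was nearly unseen. They included 3 of the 10 deepest windows. Window chr4:12002085-12002155 had 7132 mCol and 8 pBur matches, and 8 mBur and 7479 pCol matches. Window chr1:658893-658963 had 5758 mCol and 3 pBur matches, and 4 mBur and 6253 pCol matches. Scaled to the library, pCol was a median of 0.824 times mCol in the 12 windows. Col-0 matches were thus at a similar level in both crosses in most of them. Whether those of Bur-0×Col-0 came from the paternal allele was not tested. The Bur-0 matches in these 12 windows numbered between 5 and 59, with a median of 8. Window chr3:18291303-18291373 stood apart with 2447 mCol, 22 pBur, 24 mBur and 15533 pCol matches, 5.01-fold more pCol than mCol after scaling to the library. Its Col-0 share in Bur-0×Col-0 was 99.8% as counted and 87.3% with starts counted once per lane. Windows chr3:2969432-2969502 and chr5:19224510-19224580 completed the 5 highest shares in Bur-0×Col-0, with 99.3% (1952 pCol to 13 mBur) and 99.2% (1633 pCol to 14 mBur).

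A gene could be assigned to 61 of the 393 windows, which lay in 50 gene regions, 2.44% of the 2053 regions that could be placed. Loci come from the part of the study's lists of biased genes that was used here, which holds 2147 loci with counts, so that a member without a name may lie in a listed gene that was not analysed here. Matches were unique only within the set of windows, so that reads of a near-identical gene copy without a window cannot be told apart from reads of the named gene. The study listed these genes for a parental bias in both crosses, found from the same matches summed per gene. Contrasts between members and other windows of a gene, and the sums of genes below, are therefore not independent of that choice. Of the 50 regions, 7 held more than 1 member.

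UPL2 (AT1G70320), a HECT-type ubiquitin-protein ligase with the close homologue UPL1, held 6 members in its 16 windows. In the member chr1:26493992-26494062 there were 755 mCol and 5 pBur matches, and 265 mBur and 161 pCol matches. In the 6 members mCol made up between 98.3% and 99.3% of one cross and pCol between 28.6% and 38.7% of the other. Of the 14 windows tested, 5 others were called higher for Bur-0 and 3 were not called. The 5 windows called for Bur-0 lay between the members, where mCol made up 55.2 to 87.0% and pCol 0 to 2.04% of the respective cross. In chr1:26495758-26495828, which starts 101 nt before a member, there were 286 mCol, 106 pBur, 275 mBur and 5 pCol matches (Fisher's exact test, adjusted p = 2.29e-20). The member at chr1:26495859-26495929 had 142 mCol, 2 pBur, 56 mBur and 26 pCol matches. In UPL2, pCol and pBur matches were thus frequent in different windows. Whether they came from the paternal allele of this gene was not tested.

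AT4G37520, a class III peroxidase gene, held 2 members. The member chr4:17632063-17632133 had 921 mCol, 3 pBur, 751 mBur and 300 pCol matches, and chr4:17632980-17633050 had 882, 1, 523 and 317. Their Col-0 shares in Bur-0×Col-0 were 28.5% and 37.7%. The 4 other tested windows of the gene had 0 pBur matches and together 1 pCol match, although their depth reached 1108 mCol and 908 mBur matches. With 0 of 908 matches a paternal share of up to 0.330% is allowed in that window. The window starting 55 nt after the second member had 403 mCol and 582 mBur matches and no paternal match.

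ILL2 (AT5G56660), an IAA-amino acid hydrolase gene, showed the same alternation. Its members had Col-0 shares in Bur-0×Col-0 of 45.9% (124 mBur and 105 pCol matches) and 25.7% (202 and 70). The 3 other tested windows had 6 pCol to 593 mBur, 6 to 178 and 1 to 307 matches, and none of them was called. In VSR4 (AT2G14720), which encodes a vacuolar sorting receptor, the 2 members lay 294 nt apart with 39.1% (142 mBur and 91 pCol) and 44.2% (53 and 42). Of its 7 other tested windows, 3 were called higher for Bur-0 and 4 were not called.

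**Figure D2:**
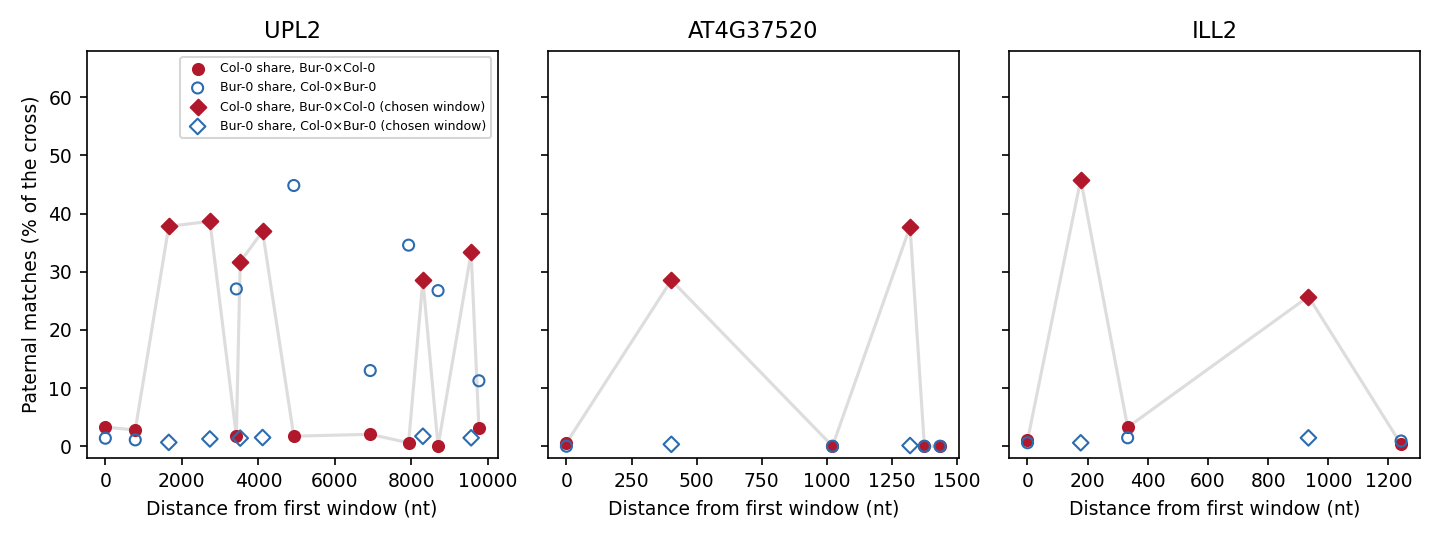
Paternal matches (y axis, percent of the matches of the cross) in the windows with at least 20 matches per cross along UPL2, AT4G37520 and ILL2 (x axis, distance from the first window of the gene in nt). Red symbols are Col-0 in Bur-0×Col-0, open blue symbols Bur-0 in Col-0×Bur-0, and diamonds the windows that favour Col-0. Over the 3 genes the red diamonds stand at 25.7 to 45.9% and the red circles at 3.27% or less.

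GAPC2 (AT1G13440), a cytosolic glyceraldehyde-3-phosphate dehydrogenase, had the deepest named member. Window chr1:4609470-4609540 had 4496 mCol, 78 pBur, 3399 mBur and 1397 pCol matches. Its Col-0 share in Bur-0×Col-0 was 29.1% (interval 27.9 to 30.4%) and lay between 28.4% and 29.6% in the lanes. A non-member in the same gene, chr1:4609667-4609737, had a similar share of 31.9%, with 1705 mBur and 797 pCol matches. Of 7 tested windows in GAPC2, 2 were called higher for Col-0, 3 higher for Bur-0 and 2 were not called.

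The polyubiquitin gene UBQ10 (AT4G05320) held 1 member, chr4:2720010-2720080, with 5266 mCol, 6 pBur, 462 mBur and 272 pCol matches. Of 15 tested windows in UBQ10, 6 were called higher for Col-0 and 7 higher for Bur-0. Among these, chr4:2719873-2719943 had 3216 pBur to 3518 mCol and only 52 pCol to 6395 mBur matches. UBQ10 is built of nearly identical repeats and has several close relatives, which makes the assignment of its matches uncertain.

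Ribosomal protein genes were also found, with Col-0 shares in Bur-0×Col-0 of 38.2% in AT1G57660 (1506 mBur and 930 pCol matches) and 27.3% in AT3G22230 (1783 and 669). The share was 33.2% in AT5G35530 (653 and 325). These genes have closely related copies. Enzyme genes included AXS2, a UDP-apiose/UDP-xylose synthase, with 46.8% (343 mBur and 302 pCol). They also included SAM1, an S-adenosylmethionine synthetase, with 27.1% (401 and 149), and ADK1, an adenosine kinase, with 32.3% (193 and 92). In the serine carboxypeptidase-like gene scpl42, 0 of 203 matches in Col-0×Bur-0 were pBur, which allows a share of up to 1.48%, and in the reciprocal cross 25.5% were pCol. AT1G62020, which encodes an alpha subunit of the COPI vesicle coat, had 2 members with 60.9% (136 mBur and 212 pCol) and 47.4% (133 and 120). Of its 30 tested windows, 4 were called higher for Col-0, 7 higher for Bur-0 and 19 were not called. The remaining loci among the 20 deepest members with a gene were AT2G16510 (37.4%), AT3G06680 (30.6%), AT1G11670 (44.4%) and the IQ-domain gene iqd2 (40.2%).

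The last genes with 2 members were AT3G57880 and RABA1c (AT5G45750), a small GTPase of membrane traffic. The members of AT3G57880 had Col-0 shares in Bur-0×Col-0 of 44.6% (62 mBur and 50 pCol matches) and 28.1% (41 and 16), and those of RABA1c 36.9% (123 and 72) and 27.8% (26 and 10). In AT3G57880 3 of 8 tested windows were called higher for Col-0 and 0 for Bur-0. In RABA1c these were 2 of 13 and 0, so that neither gene had a window called in the opposite direction. The same held for AT4G37520 and ILL2, unlike UPL2, VSR4 and AT1G62020.

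Neighbouring windows were examined next, because windows starting 36 to 500 nt from a member share no 36-nt read with it and were not used to choose it. For each window with at least 20 matches per cross, maternal and paternal matches of both crosses were compared by two-sided Fisher's exact test. Windows were called when p, adjusted by Benjamini and Hochberg's procedure over 34959 windows, did not exceed 0.05 and the odds ratio was at least 2. Of all tested windows, 3.97% were called higher for Col-0 and 6.96% higher for Bur-0. Of 643 neighbours, 97 (15.1%) were called higher for Col-0, 168 (26.1%) higher for Bur-0 and 378 were not called. Calls in either direction were thus more frequent around members than in the whole table, and those for Bur-0 outnumbered those for Col-0.

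Of the 97 neighbours called for Col-0, 53 were themselves members. Among the 590 neighbours that were not, 44 (7.46%) were called higher for Col-0 and 168 (28.5%) higher for Bur-0, against 2.90% and 7.04% of all tested windows that were not members. The balance depended on the distance to the next SNP. In windows without a second matched SNP within 35 nt, 4.62% of all tested were called higher for Col-0 and 3.98% higher for Bur-0. Of the 387 neighbours of that kind, 77 (19.9%) were called for Col-0 and 63 (16.3%) for Bur-0. Leaving out the members among them left 334, with 24 (7.19%) and 63 (18.9%). The 4.62% and 3.98% still include the 393 members, of which 385 were called for Col-0. Neighbours were deeper than the tested windows as a whole, with a median of 203 against 142 matches, and the part of depth in these shares was not tested.

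Of the 393 members, 237 had at least 1 tested neighbour. A neighbour called for Col-0 was found for 87 of these, a neighbour called for Bur-0 for 93, both for 41 and neither for 98. The share of neighbours called higher for Bur-0 was 16.3% around members with a Col-0 share of 25 to 33% in Bur-0×Col-0, 28.2% at 33 to 50% and 36.1% at 50 to 95%. Those called higher for Col-0 were 19 of 172, 41 of 280 (14.6%) and 39 of 238 (16.4%) in the same order. Around members at 95% or more, 4 neighbours were tested, of which 1 was called for Col-0 and 0 for Bur-0. A neighbour of members in several classes counts in each of them. The windows favouring Bur-0 in both crosses had 507 neighbours, of which 13.4% were called for Col-0 and 29.6% for Bur-0. Windows that themselves favoured Bur-0 by that rule were not left out of these 507.

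**Figure D3:**
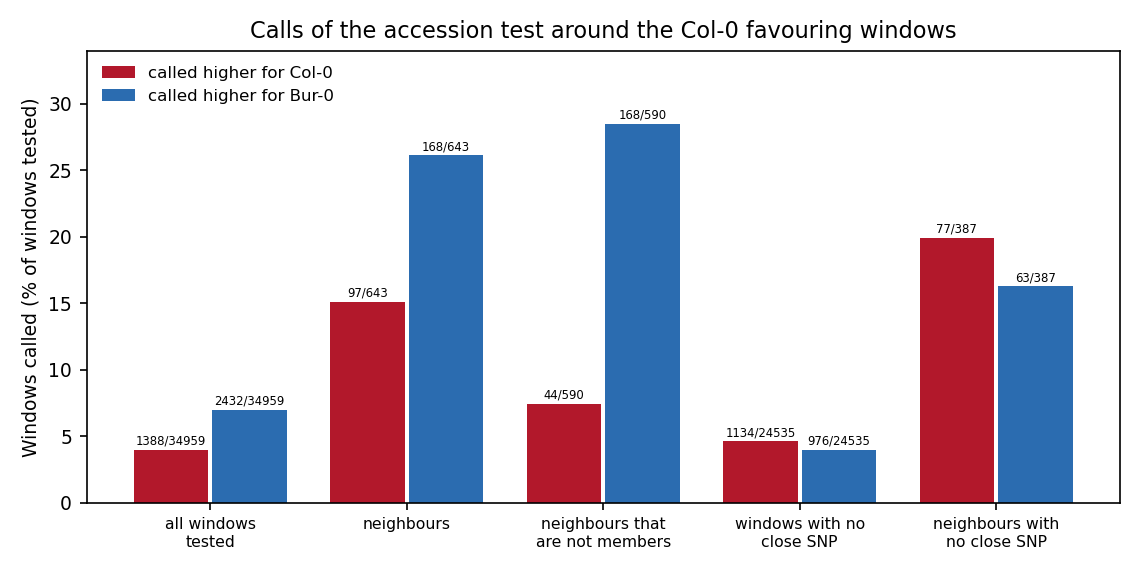
Windows called higher for Col-0 (red) or Bur-0 (blue) as a percentage of the windows tested (y axis), for all windows tested, the neighbours at 36 to 500 nt, the neighbours that are not members, and the windows and neighbours with no other matched SNP within 35 nt. Numbers above the bars are windows called over windows tested. The Bur-0 bars of the neighbours, at 26.1%, 28.5% and 16.3%, exceed those of the tested windows at 6.96% and 3.98%.

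On the level of genes, the matches of the 50 regions were summed without the member windows and tested in the same way. Of these sums, 2 (4.00%) were higher for Col-0 and 21 (42.0%) higher for Bur-0, compared with 4.28% and 18.6% of 1987 regions. With the sums limited to windows without a second matched SNP within 35 nt, 7 of 48 (14.6%) were higher for Col-0 and 14 (29.2%) higher for Bur-0, compared with 8.41% and 4.31% of 1949 regions. Higher sums for Col-0 were thus about as frequent as in all regions with every other window, and more frequent with the windows without a close SNP, while higher sums for Bur-0 were more frequent in both. Leaving out members took windows with high Col-0 shares from the 50 regions alone, which moves their sums towards Bur-0. The difference to all regions is thus in part set by the rule, and the part of depth in it was not tested. These sums were added after the window values had been seen.

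Members nevertheless lay near each other in some places. Another member was within 2000 nt for 106 of the 393 windows and within 500 nt for 53. No matching count is given for the windows before the share limits, so whether members lay closer than those was not tested. The members within 2000 nt of each other formed 37 pairs, 4 groups of 3 and 5 groups of 4. The group with the most matches among those of 4 was the one in UPL2. A group of 4 on chromosome 1 between 30069930 and 30071737 had Col-0 shares in Bur-0×Col-0 of 59.8 to 65.6%, and 1 of the 5 tested windows in that stretch was called for Bur-0. A group on chromosome 5 between 23832254 and 23833017 had shares of 46.0 to 67.3%, and 4 of its 5 tested windows were called for Col-0 and 0 for Bur-0. Another stretch, on chromosome 5 between 8974135 and 8976527, had 70.5 to 85.8% in its members. There 7 of 16 tested windows were called for Col-0 and 6 for Bur-0. The last, on chromosome 3 between 5658560 and 5660765, had 26.0 to 69.9%, with 5 of 21 tested windows called for Col-0 and 5 for Bur-0. Members, which the rule chose for Col-0, are among the windows counted in each group.

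The place of a match within the window was not part of the rule. A 36-nt read can start at 36 places in a window and still cover the SNP, and Col-0 and Bur-0 matches were compared between the first and last 18 starts. Of 365 members with at least 10 matches of each allele, 151 (41.4%) differed by Fisher's exact test at the same limit on the adjusted p. Of all 45925 windows tested 20.2% differed, and of those without a second matched SNP within 35 nt 7.58%. Bur-0 matches were more frequent in the first 18 starts in 79 of the 151 windows and less frequent in 72. The alleles were at least 25 percentage points apart in 93 of them and at least 50 points in 30, and in 25 all Bur-0 matches lay on one side. Members tested had a median of 247 matches and the windows without a close SNP 104. Among windows without a close SNP with 100 to 500 matches, chosen after seeing the data, 71 of 213 members (33.3%) differed against 5.32% of all.

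The member in UBQ10 had one of the widest gaps. Of its Col-0 matches 4954 started in the first 18 places and 584 in the last 18, whereas of its Bur-0 matches 2 started in the first and 466 in the last. In AT3G06680 the numbers were 570 and 159 for Col-0, and 8 and 180 for Bur-0 (exact test, adjusted p = 5.43e-81). In AT3G03960 they were 241 and 98 for Col-0, and 0 and 78 for Bur-0 (exact test, adjusted p = 1.79e-33). The 78 Bur-0 matches of AT3G03960 had only 3 different starts, whereas its Col-0 matches used all 36. TIC21, a component of protein import into chloroplasts, had 0 of 73 Bur-0 matches in the first 18 starts and 223 of its Col-0 matches there against 119 in the last. The opposite was seen in window chr4:17097619-17097689, where 12.6% of Col-0 and 69.7% of Bur-0 matches started in the first 18 places (exact test, adjusted p = 2.14e-116). These windows, like those named below for their totals, were chosen after their values were seen. In AT3G03960 and TIC21 the Bur-0 matches lay on one side, whereas Col-0 matches were found on both.

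**Figure D4:**
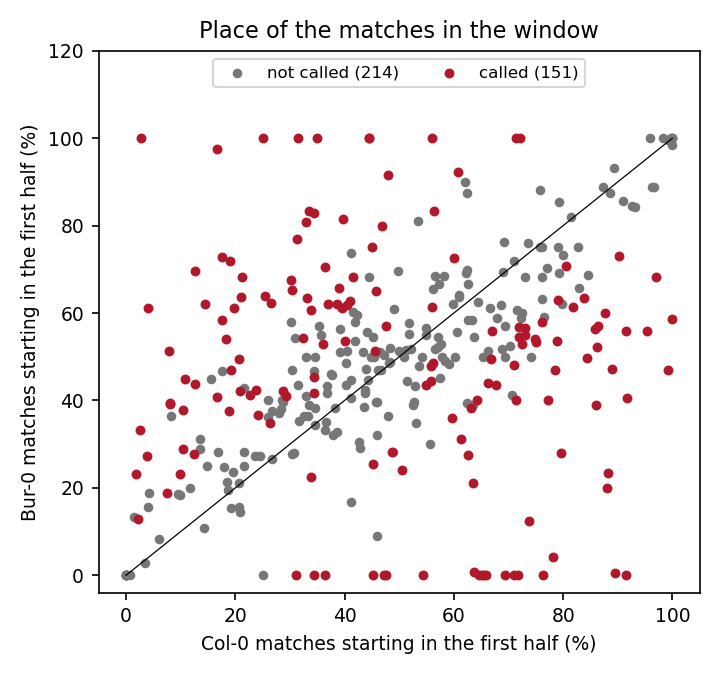
Percentage of Bur-0 matches (y axis) against percentage of Col-0 matches (x axis) that start in the first 18 of 36 places, for the 365 windows favouring Col-0 with at least 10 matches of each allele. Red points are the 151 windows called by Fisher's exact test, grey points the 214 not called, and the line marks equal percentages. Red points lie on both sides of the line, many of them at a Bur-0 percentage of 0 or 100.

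With each start and orientation counted once per lane, 68 of 352 members (19.3%) differed against 11.7% of all windows. Within Bur-0×Col-0 alone, where both alleles were frequent in members, 145 of 338 (42.9%) differed, against 20.1% of the 3523 windows tested there. Within Col-0×Bur-0 alone 41 members could be tested and 10 (24.4%) differed, against 28.8% of 3301 windows. Unlike the members, the windows compared with them in these settings were not limited to those without a close SNP. The Bur-0 matches of members had a median of 16 different starts and the Col-0 matches 26, beside medians of 41 Bur-0 matches and 234 matches in all.

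Orientation gave fewer calls. The strand of the matches differed between alleles in 89 of the 365 members (24.4%), against 12.0% of all windows and 8.70% of those without a close SNP. Start and orientation both differed in 58. No member differed in orientation when a start was counted once per lane (0 of 352, against 0.0793% of all windows), a count that is also lower and so leaves less to test.

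The rule used total matches over both alleles as a minimum and as the denominator of the Col-0 shares. A low mBur count raises the pCol share and lowers the total of Bur-0×Col-0. The totals are therefore not independent of the rule and are given as a description. Scaled to the library, 118 of 393 members (30.0%) had at least 2-fold more matches in Col-0×Bur-0 and 8 (2.04%) at least 2-fold more in Bur-0×Col-0. Scaled by the median ratio of windows instead, these were 66 and 11 members, and with starts counted once per lane 40 and 6. No share of other windows is given for these settings, so members are compared with other windows under library scaling only. Among the windows before the share limits the shares scaled to the library were 18.9% and 1.88%. Among all windows with 20 matches per cross they were 15.7% and 7.53%. The median log2 ratio of Bur-0×Col-0 over Col-0×Bur-0 was -0.61 in members, -0.49 in the windows before the share limits and -0.34 in all. With this scaling, members had lower totals where Bur-0 was the mother somewhat more often than windows of the same kind. Of the members with a Col-0 share of 25 to 33% in Bur-0×Col-0, 43.6% had at least 2-fold more in Col-0×Bur-0, compared with 24.0% of those with 50 to 95%.

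HTB4 (AT5G59910), a histone H2B gene, had 363 mCol, 0 pBur, 24 mBur and 13 pCol matches in its member, and thus 12.4-fold more scaled matches in Col-0×Bur-0. All 4 counts of this window are needed to describe it, since the pCol share of 35.1% came from 37 matches (interval 21.8 to 51.2%). Of its 7 tested neighbours 5 were called higher for Bur-0. The UBQ10 window had 9.10-fold more scaled matches in Col-0×Bur-0. The reverse was seen in chr5:1093653-1093723, with 31 mCol, 1 pBur, 32 mBur and 155 pCol matches (4.61-fold more in Bur-0×Col-0), and in scpl42 with 2.01-fold more.

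**Figure D5:**
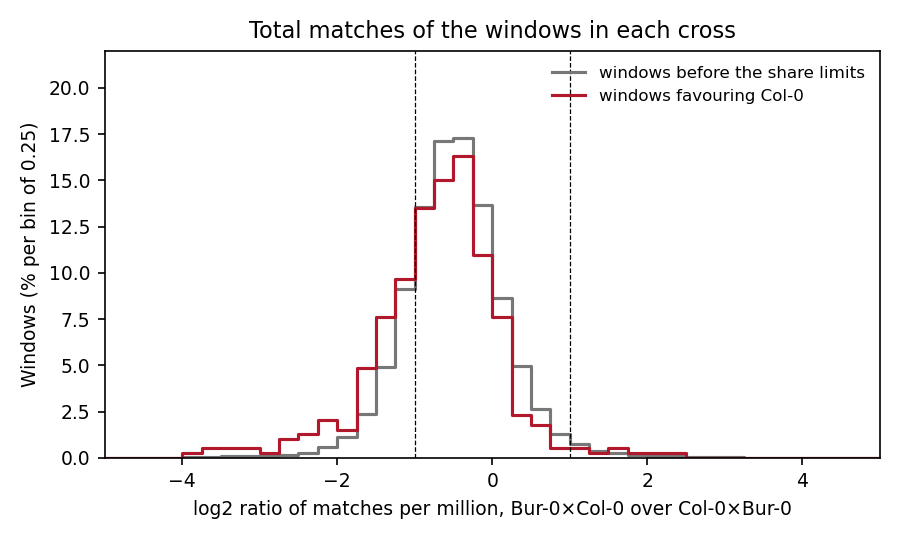
Distribution of the log2 ratio of scaled matches between Bur-0×Col-0 and Col-0×Bur-0 (x axis) as the percentage of windows per bin of 0.25 (y axis), for the 393 windows favouring Col-0 (red) and the 24343 windows before the share limits (grey), with dashed lines at 2-fold. The red line lies above the grey line on the left, with 30.0% against 18.9% of windows past 2-fold.

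Lanes are technical repeats of 1 library. Of 245 members with at least 10 matches in every lane, 163 met both share limits in all 4 lanes of both crosses, 202 the limit in Bur-0×Col-0 and 191 that in Col-0×Bur-0. The Col-0 share in Bur-0×Col-0 spanned a median of 13.7 percentage points over the lanes. With starts counted once per lane, 283 of 393 members met both share limits and the median Col-0 share was 97.7% with Col-0 as mother and 46.2% with Col-0 as father.

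At the limits, windows inside and outside differed by few matches. In Bur-0×Col-0 the members chr5:14951875-14951945 (10 of 40 matches), chr1:18395778-18395848 (8 of 32) and chr3:5763968-5764038 (5 of 20) stood at 25%. Just outside were windows with 19 of 77, 29 of 118 and 32 of 131 Col-0 matches, or 24.7%, 24.6% and 24.4%. In Col-0×Bur-0 the lowest members had 133 of 140, 387 of 407 and 59 of 62 Col-0 matches, or 95%, 95.1% and 95.2%. Windows just outside had 94.8%, 94.8% and 94.5% over 192, 96 and 91 matches.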

How the data were processed

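The authors matched 36-nt reads with vmatch (up to 2 mismatches) to windows of 71 nt made from the TAIR8 sequence for each allele, and kept those matches that were unique among all windows. The matches of each lane were deposited as lists without normalization. A match line holds the window, the start, the orientation and the read, so that the values used here are counts of deposited matches (unit: other, a start position in each line). Lanes were summed. By the read names, lane 1 of each cross was run on another instrument than the others, and without it the rule gave 358 windows. Distance to the next SNP refers to SNPs with at least 1 match.

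Fisher's exact tests were two-sided, 0.5 was added to each count in log2 odds ratios, and Wilson intervals were 95%. A count of 0 was given the share of 3 matches. The tests were tested on simulated data. The study's list of maternally biased genes was used only in part. Of the 2147 loci with counts used here, 2053 were placed as the run of windows with equal sums, and symbols of 2052 were found in RefSeq for TAIR10.1. For 49 of the 50 regions with a member this run was the only one. Windows named are the 10 deepest, the 5 with the highest Col-0 share in Bur-0×Col-0, groups of members within 2000 nt, up to 20 in placed genes by depth, and 3 on each side of a limit, with exceptions stated. Members, lists and tests were chosen with earlier results of these data known. Tests used SciPy 1.17.1, tables pandas 2.3.3 and NumPy 2.4.6, and plots Matplotlib 3.10.9, all under Python 3.11.15.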

Additional observations from a re-analysis of the deposited data

How the results depend on the processing

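The rule gave between 272 and 583 windows under 16 alternatives, among them other coverage minimums, SNP distances and share limits and the omission of each lane in turn, and 179 with a limit of 50% in Bur-0×Col-0. Counting a start and orientation once per lane lowered the windows called higher for Col-0 from 1388 to 879, the members with different starts from 151 to 68 and those with different orientation from 89 to 0. It lowered the members past 2-fold in total matches from 126 to 46 (40 higher in Col-0×Bur-0 and 6 in the reciprocal cross), and scaling by the median ratio of windows lowered them to 77 (66 and 11). Different starts numbered 10 within Col-0×Bur-0 alone and 71 in windows of 100 to 500 matches without a close SNP, where fewer members could be tested. The share of neighbours called higher for Col-0 was 15.1%, and 20.8% with at least 50 matches per cross, 19.9% without a close SNP and 7.46% without members. The settings on close SNPs and on members were chosen after seeing the data. Other causes of these changes were not tested. No paired analysis was possible because each cross had 1 library. Windows with few Bur-0 matches have little depth, since the rule admits 5, and with at least 20 it gave 289 windows.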
